A study of Mus musculus with 15 samples.

Results

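The 10 genes described here encode MHC class I heavy chains (H2-K1, H2-D1, H2-Q4, H2-Q6, H2-Q7 and H2-T23), their light chain (B2m), parts of the machinery that loads them with peptide (Tap1 and Tapbp) and the class I transactivator Nlrc5. They were chosen by name from the 27019 genes of the table, in part on the measured H2-Q6 counts, which were lower in Susd2-/- cells than in WT cells on both days. All 10 passed the filter on low counts, which left 16057 genes. Because the H2-Q6 difference between genotypes helped choose the genes, the genotype differences of the 10 are given as descriptions with no p-value, and those under the threshold are counted only, beside the share of all genes. The day differences of all 10 genes, and the interaction of genotype and day of the 9 genes other than H2-Q6, were tested.

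Spleen CD8+ T cells came from OT-I mice, aged 8 to 10 weeks and labelled C57BL/6, and their RNA was sequenced with 2 libraries in each of 4 groups. The groups were Susd2-/- day 3, WT day 3, Susd2-/- day 0 and WT day 0. Day 3 cells came from splenocytes kept for 3 days with the ovalbumin peptide OVA257-264, and day 0 cells were untreated. CD8+ cells were obtained with a magnetic isolation kit, and all groups carry the OT-I T cell receptor transgene. Nothing in the labels ties each library to its own mouse, and p-values here therefore rest on a spread between 2 libraries that could be technical.

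A class I molecule is a heavy chain paired with beta-2 microglobulin, the product of B2m, and it holds a short peptide at the cell surface for inspection by CD8+ T cells and NK cells. Peptides cut by the proteasome enter the endoplasmic reticulum through a transporter made of TAP1 and TAP2, and tapasin, the product of Tapbp, helps the heavy chain to take up a peptide that binds well. NLRC5 acts at the promoters of class I, B2m and TAP genes, and interferons raise the output of the whole pathway. The OT-I receptor sees its ovalbumin peptide on H-2Kb, the C57BL/6 product of H2-K1, and T cells express class I themselves.

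H2-Q6 and H2-Q7 encode Qa-2 antigens and lie side by side, H2-Q6 at chr17:35424850-35430055 and H2-Q7 at chr17:35439155-35443773, both on the plus strand of GRCm38. Their coding sequences were identical at 95.4% of 981 aligned bases and differed at 45. The stretch below, bases 76 to 135 of each coding sequence counted from the A of the start codon, is shown because 10 of its 60 bases differ (capitals), so reads across it can be told apart.
H2-Q6 coding: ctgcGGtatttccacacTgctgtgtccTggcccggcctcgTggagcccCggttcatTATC
H2-Q7 coding: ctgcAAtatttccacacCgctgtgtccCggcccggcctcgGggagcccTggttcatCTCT
Of the 1936 windows of 150 bases (the read length) in annotated H2-Q6 transcripts, 116 (5.99%) also occurred in another gene, and that gene was H2-Q7. For H2-Q7 the share was 5.90%, for H2-Q4 9.87% and for Tapbp 10.1%, while it was at most 1.35% for the other 6 genes and 0 for H2-K1, B2m and Nlrc5. How reads with several alignments were counted is not given in the sources used here. The split of counts between H2-Q6 and H2-Q7 is therefore uncertain. The shares above count exact matches only and do not bound that uncertainty.

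The 250 bases before the start sites of 4 of the genes are shown because H2-Q6, H2-Q7 and H2-K1 moved in the same direction between the days and B2m moved with them. They are RefSeq promoters on GRCm38.p6: H2-Q6 at chr17:35424600-35424849 (plus strand), H2-Q7 at chr17:35438905-35439154 (plus strand), H2-K1 at chr17:34000348-34000597 (minus strand) and B2m at chr2:122147437-122147686 (plus strand). Capitals mark matches on either strand to 3 motifs: an NF-kB type motif (GGG, any 2 bases, T, any base, CCC), the X2 box type motif TGACGC, and an interferon-stimulated response element type motif (GAAA, any 2 bases, GAAA). Overlapping matches are joined in 1 run of capitals.
H2-Q6 promoter: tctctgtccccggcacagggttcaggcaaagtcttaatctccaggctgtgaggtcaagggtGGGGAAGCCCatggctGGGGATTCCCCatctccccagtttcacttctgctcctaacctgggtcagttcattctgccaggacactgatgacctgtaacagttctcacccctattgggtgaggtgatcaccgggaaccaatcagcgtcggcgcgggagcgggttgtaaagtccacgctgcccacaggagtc
H2-Q7 promoter: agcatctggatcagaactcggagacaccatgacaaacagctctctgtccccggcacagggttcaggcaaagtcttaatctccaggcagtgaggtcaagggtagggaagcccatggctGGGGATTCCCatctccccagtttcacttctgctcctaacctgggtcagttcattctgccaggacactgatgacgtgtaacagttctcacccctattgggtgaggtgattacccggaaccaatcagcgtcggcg
H2-K1 promoter: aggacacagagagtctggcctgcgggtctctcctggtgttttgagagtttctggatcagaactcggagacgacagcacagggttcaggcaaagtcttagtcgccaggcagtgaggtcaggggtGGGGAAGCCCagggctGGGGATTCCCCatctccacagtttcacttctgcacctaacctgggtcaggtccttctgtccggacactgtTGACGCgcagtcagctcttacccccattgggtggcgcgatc
B2m promoter: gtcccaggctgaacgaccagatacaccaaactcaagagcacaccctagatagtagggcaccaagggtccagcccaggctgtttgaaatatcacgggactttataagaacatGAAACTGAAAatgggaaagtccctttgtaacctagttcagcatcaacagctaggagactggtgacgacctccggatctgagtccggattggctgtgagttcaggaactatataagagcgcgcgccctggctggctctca
RefSeq promoter entries of 300 bases, 250 before and 50 after the start, were found for 9 of the 10 genes. The H2-Q6 and H2-Q7 entries were identical at 97.7% of 260 aligned bases, H2-K1 and H2-D1 at 89.5%, and H2-T23 stood apart from the other heavy chains at 55.9% to 62.1%. The NF-kB type motif matched in H2-K1, H2-D1, H2-Q4, H2-Q6 and H2-Q7, against 5.02% of all 32851 promoter entries. TGACGC matched before the start in H2-K1 and H2-D1. In H2-Q4 it matched only after the start, on the minus strand at bases 281 to 286 of the 300. A match anywhere in the entry was found in 7.40% of all entries. The interferon-stimulated response element type motif matched in B2m and H2-T23, against 3.44%.

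Library totals ran from 26829807 to 53846911 counts. Susd2 had 0 and 2 counts in Susd2-/- day 3, against 16 and 10 in WT day 3, and 1 and 3 counts in Susd2-/- day 0, against 90 and 80 in WT day 0. The low counts of the targeted gene stood under the Susd2-/- labels in all 4 such libraries. All 9 CD8 T cell markers were detected in every library. The spread between libraries of a group, as a biological coefficient of variation, was 10.2% at day 3 and 5.43% at day 0.

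From day 0 to day 3 5 of the 6 heavy chain transcripts, B2m, Tapbp and Nlrc5 fell in both genotypes, Tap1 rose, and the heavy chain H2-T23 did not pass the test. In each genotype 9 of the 10 genes changed (adjusted p under 0.05), 8 lower and 1 higher. Among all genes tested 76.4% changed in Susd2-/- cells and 75.2% in WT cells. A change in at least 9 of 10 is therefore read against a background in which most genes changed. The median log2 fold change of the 10 genes was -0.82 in Susd2-/- cells and -1.08 in WT cells, while over all genes it was -0.12 in Susd2-/- cells and -0.14 in WT cells. A fall here is a lower share of the counts of a library, and the amount of RNA per cell was not measured. In these bulk libraries fewer cells of a type, less of a transcript per cell and more of other RNA cannot be told apart. In each genotype the day 3 and day 0 libraries of 9 genes did not overlap, as for 88.6% of all genes in Susd2-/- cells and 88.3% in WT cells. Levels below are in CPM, each gene's count scaled to the TMM-adjusted size of its library.

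**Figure D1:**
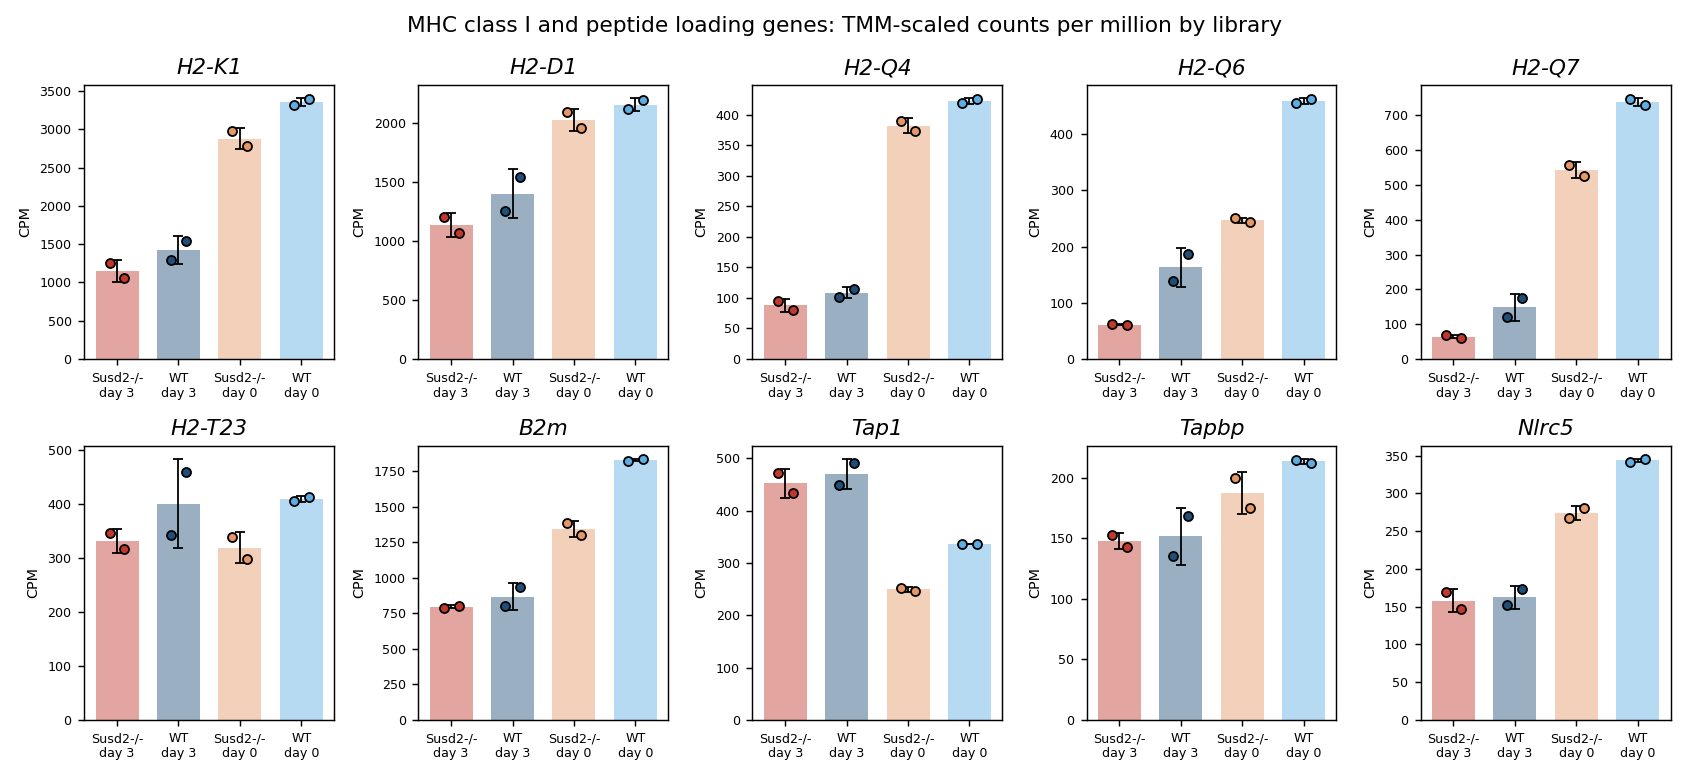
CPM (vertical axis, linear, from 0) of each of the 10 genes in the 4 groups, with bars at the mean, error bars of 1 SD and 1 point per library (n = 2 libraries a group). Day 3 bars are below day 0 bars of the same genotype for all genes but Tap1, where they are above, and H2-T23, where the groups overlap within WT and within Susd2-/-; H2-Q6 bars are lower in Susd2-/- than in WT on both days.

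Among the classical heavy chains, H2-K1 had 1255 and 1052 CPM in Susd2-/- day 3 libraries, against 2972 and 2786 CPM in Susd2-/- day 0 libraries. In WT cells it had 1288 and 1547 CPM at day 3, against 3317 and 3392 CPM at day 0. All day 3 libraries were thus below all day 0 libraries. The log2 fold change of H2-K1, day 3 over day 0, was -1.32 ± 0.0972 (SE) in Susd2-/- cells (edgeR adjusted p = 1.42e-07) and -1.24 ± 0.0970 in WT cells (edgeR adjusted p = 2.55e-07). H2-D1, the other classical heavy chain here, had 1206 and 1063 CPM in Susd2-/- day 3, against 2091 and 1958 CPM in Susd2-/- day 0. It had 1255 and 1545 CPM in WT day 3, against 2112 and 2193 CPM in WT day 0. The groups did not overlap between days, and H2-D1 fell by 0.84 ± 0.0922 on the log2 scale in Susd2-/- cells (edgeR adjusted p = 3.69e-06) and by 0.62 ± 0.0919 in WT cells (edgeR adjusted p = 5.63e-05).

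The Q region genes fell further. H2-Q7 had 68.0 and 61.1 CPM in Susd2-/- day 3, against 559 and 527 CPM in Susd2-/- day 0, and 121 and 176 CPM in WT day 3, against 747 and 730 CPM in WT day 0. Its log2 fold change was -3.07 ± 0.192 in Susd2-/- cells (edgeR adjusted p = 2.61e-05) and -2.32 ± 0.185 in WT cells (edgeR adjusted p = 8.70e-05), the lowest of the 10 genes in each genotype. H2-Q4, which encodes the nonclassical Qb-1 antigen, had 95.5 and 80.5 CPM in Susd2-/- day 3, against 390 and 373 CPM in Susd2-/- day 0, and 102 and 115 CPM in WT day 3, against 419 and 426 CPM in WT day 0. Its day 3 libraries all lay below its day 0 libraries, with log2 fold changes of -2.12 ± 0.0803 in Susd2-/- cells (edgeR adjusted p = 4.90e-14) and -1.96 ± 0.0799 in WT cells (edgeR adjusted p = 1.47e-13). H2-Q6 had 61.9 and 60.2 CPM in Susd2-/- day 3, against 250 and 243 CPM in Susd2-/- day 0, and 139 and 187 CPM in WT day 3, against 456 and 463 CPM in WT day 0. It fell by 2.01 ± 0.117 on the log2 scale in Susd2-/- cells (edgeR adjusted p = 8.62e-08) and by 1.49 ± 0.114 in WT cells (edgeR adjusted p = 8.27e-07). H2-Q6 and H2-Q7 share sequence as given above, and summed with H2-Q4 into 1 feature they had log2 fold changes of -2.46 ± 0.125 in Susd2-/- cells and -1.95 ± 0.122 in WT cells.

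H2-T23 encodes Qa-1, which shows a peptide from other class I leader sequences to the CD94/NKG2A receptor. It had 347 and 316 CPM in Susd2-/- day 3, against 339 and 298 CPM in Susd2-/- day 0, and 342 and 459 CPM in WT day 3, against 405 and 413 CPM in WT day 0. The days overlapped in both genotypes. The log2 fold change was 0.06 ± 0.138 in Susd2-/- cells (edgeR adjusted p = 0.724) and -0.03 ± 0.137 in WT cells (edgeR adjusted p = 0.852). WT day 3 library 2 held the highest H2-T23 value of the 8, and without it the WT log2 fold change was -0.23 (edgeR adjusted p = 0.0149). Without WT day 3 library 1 the WT value was 0.17 (edgeR adjusted p = 0.0583).

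The light chain gene B2m had 788 and 802 CPM in Susd2-/- day 3, against 1383 and 1301 CPM in Susd2-/- day 0, and 801 and 932 CPM in WT day 3, against 1821 and 1835 CPM in WT day 0. Its day 3 and day 0 libraries did not overlap, and it fell by 0.76 ± 0.0679 on the log2 scale in Susd2-/- cells (edgeR adjusted p = 5.53e-09) and by 1.08 ± 0.0683 in WT cells (edgeR adjusted p = 2.88e-11). Nlrc5 had 169 and 147 CPM in Susd2-/- day 3, against 268 and 281 CPM in Susd2-/- day 0, and 152 and 173 CPM in WT day 3, against 342 and 345 CPM in WT day 0. Nlrc5 fell by 0.80 ± 0.0753 on the log2 scale in Susd2-/- cells (edgeR adjusted p = 1.94e-08) and by 1.08 ± 0.0757 in WT cells (edgeR adjusted p = 2.72e-10).

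Tap1, which encodes one chain of the peptide transporter, was the gene of the 10 that rose. It had 472 and 433 CPM in Susd2-/- day 3, against 253 and 246 CPM in Susd2-/- day 0, and 450 and 491 CPM in WT day 3, against 336 and 337 CPM in WT day 0. Every day 3 library was above every day 0 library, and the log2 fold change was 0.86 ± 0.0643 in Susd2-/- cells (edgeR adjusted p = 3.48e-10) and 0.48 ± 0.0639 in WT cells (edgeR adjusted p = 1.34e-06). Tapbp, the tapasin gene, had 152 and 143 CPM in Susd2-/- day 3, against 200 and 175 CPM in Susd2-/- day 0, and 135 and 168 CPM in WT day 3, against 215 and 212 CPM in WT day 0. The days did not overlap within a genotype, and Tapbp fell by 0.35 ± 0.0938 on the log2 scale in Susd2-/- cells (edgeR adjusted p = 0.00444) and by 0.49 ± 0.0940 in WT cells (edgeR adjusted p = 0.000348). The Susd2-/- call for Tapbp rested on single libraries: the log2 fold change was -0.19 (edgeR adjusted p = 0.106) without Susd2-/- day 0 library 3 and -0.28 (edgeR adjusted p = 0.0558) without Susd2-/- day 3 library 2.

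**Figure D2:**
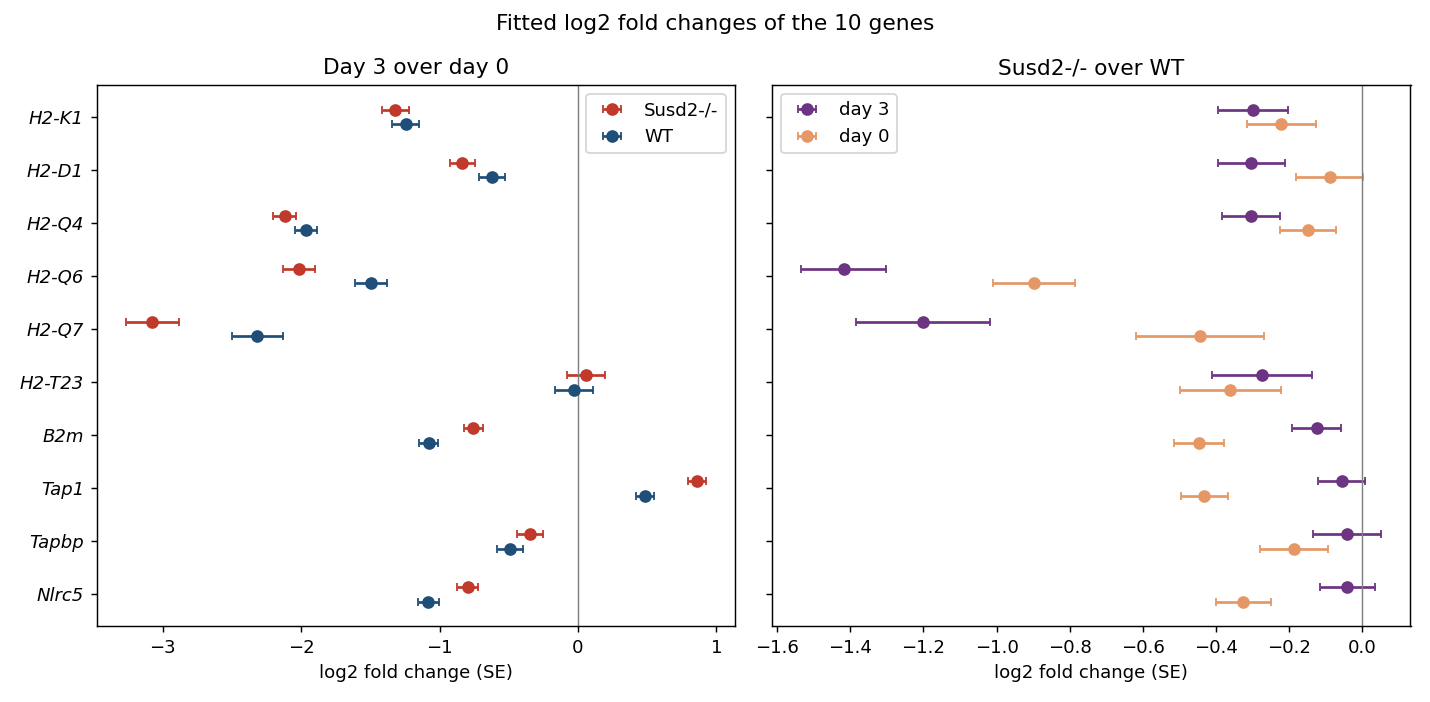
Fitted log2 fold changes (horizontal axes) of the 10 genes with error bars of 1 SE, day 3 over day 0 on the left for Susd2-/- and WT cells, and Susd2-/- over WT on the right for day 3 and day 0. On the left the Q region genes lie lowest and Tap1 is at 0.86 in Susd2-/- and 0.48 in WT; on the right all points are below 0 and H2-Q6 is lowest, at -1.42 on day 3 and -0.90 on day 0.

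Most macrophage, B cell and NK cell markers fell by day 3, against 39.7% of all genes in Susd2-/- cells and 39% in WT cells. Of 12 macrophage and monocyte markers, 11 fell and 1 rose in Susd2-/- cells, and 10 fell and 1 rose in WT cells. Their summed level was 42.2 and 41.5 CPM in Susd2-/- day 3, against 201 and 184 CPM in Susd2-/- day 0, and 43.1 and 52.3 CPM in WT day 3, against 95.5 and 93.4 CPM in WT day 0. Axl made up most of the day 3 sums, and the 11 others summed to 12.9 and 11.1 CPM in Susd2-/- day 3, against 181 and 165 CPM in Susd2-/- day 0, and to 11.6 and 15.3 CPM in WT day 3, against 86.1 and 85.1 CPM in WT day 0. Vcam1, C1qa, C1qc, Adgre1 and Spic were at 0 in all 4 day 3 libraries. Of 12 B cell markers, 11 fell in Susd2-/- cells, and in WT cells 7 fell and 1 rose. Their summed level was 292 and 280 CPM in Susd2-/- day 3, against 672 and 608 CPM in Susd2-/- day 0, and 267 and 261 CPM in WT day 3, against 532 and 542 CPM in WT day 0, with Ms4a1 at 0 in all day 3 libraries. Ighm made up most of each sum, and the 11 others summed to 4.14 and 4.51 CPM in Susd2-/- day 3, against 49.1 and 46.1 CPM in Susd2-/- day 0, and to 3.13 and 5.03 CPM in WT day 3, against 42.7 and 45.02 CPM in WT day 0. All 7 NK cell markers fell in both genotypes, and Klra8 was at 0 in all day 3 libraries. The part of these cells in the day differences of the 10 genes was not tested. Of the 9 CD8 T cell markers, 7 fell and 2 rose in each genotype.

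Between genotypes, H2-Q6 had the lowest fold change of the 10 genes on both days. At day 3 it averaged 61.1 ± 1.25 CPM in Susd2-/- and 163 ± 34.3 CPM in WT (SD, n = 2 each), with a log2 fold change of -1.42 ± 0.116, or 37.4% of WT. At day 0 it averaged 247 ± 4.87 CPM in Susd2-/- and 459 ± 5.2 CPM in WT, with a log2 fold change of -0.90 ± 0.112, or 53.7% of WT. These are the values that helped choose the genes and carry no test. H2-Q7 stood next at day 3, with a log2 fold change of -1.20 ± 0.184 (43.5% of WT), and had -0.44 ± 0.175 (73.5% of WT) at day 0. The sum of H2-Q4, H2-Q6 and H2-Q7 was 225 and 202 CPM in Susd2-/- day 3, against 361 and 478 CPM in WT day 3, and 1199 and 1143 CPM in Susd2-/- day 0, against 1622 and 1619 CPM in WT day 0. As 1 feature the sum had log2 fold changes of -0.98 ± 0.120 at day 3 and -0.47 ± 0.118 at day 0, so the difference was smaller for the sum than for H2-Q6 alone.

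At day 3 the other heavy chains H2-K1, H2-D1 and H2-Q4 each had a log2 fold change of -0.30, Susd2-/- over WT, and H2-T23 had -0.27. Both Susd2-/- libraries were below both WT libraries for 5 of the 10 genes (H2-Q6, H2-Q7, H2-Q4, H2-K1 and H2-D1), while 16.3% of all genes had that order. For H2-T23, B2m, Tap1, Tapbp and Nlrc5 the genotypes overlapped. B2m had a log2 fold change of -0.12 ± 0.0676, Tap1 -0.06 ± 0.0635, Tapbp -0.04 ± 0.0940 and Nlrc5 -0.04 ± 0.0754. H2-Q6 was the 1 gene of the 10 among the 0.137% of all genes called at an adjusted p under 0.05, a count that follows from the choice. The median of the 10 genes was -0.29, against 0 over all genes. WT day 3 library 2 was above WT day 3 library 1 for all 10 genes. The count of 1 was 0 without Susd2-/- day 0 library 4 or without Susd2-/- day 3 library 2, 2 without WT day 0 library 3 or without WT day 3 library 2, 4 without Susd2-/- day 3 library 1 and 6 without WT day 3 library 1.

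At day 0 all 10 genes had both Susd2-/- libraries below both WT libraries, an order shown by 31.4% of all genes. After H2-Q6 the lowest were B2m, with a log2 fold change of -0.45 ± 0.0676 (73.4% of WT), H2-Q7, and Tap1, with -0.43 ± 0.0641 (74.2% of WT). H2-T23 had -0.36 ± 0.138 and Nlrc5 -0.32 ± 0.0746. H2-K1 (-0.22 ± 0.0956), Tapbp (-0.19 ± 0.0935), H2-Q4 (-0.15 ± 0.0763) and H2-D1 (-0.09 ± 0.0915) were nearest to 0. Of the 10, 4 were under an adjusted p of 0.05 (H2-Q6, B2m, Tap1 and Nlrc5), beside 23.6% of all genes; H2-Q6 is among them through the choice, and the count is a description. The median of the 10 was -0.34, against 0.01 over all genes. The count was 0 when the day 0 libraries of a group were counted as 1, and 8 without either WT day 3 library. Macrophage and monocyte markers were higher in Susd2-/- day 0, with 8 of 12 called and none lower, and the sums given above (201 and 184 CPM in Susd2-/-, against 95.5 and 93.4 CPM in WT). B cell markers had 2 of 12 called higher, and of 4 tested dendritic cell markers 1 was called higher and 1 lower. Called lower were 3 of 7 NK cell markers (summed 81.6 and 82.3 CPM in Susd2-/-, against 117 and 120 CPM in WT). So were 4 of 9 CD8 T cell markers (summed 5604 and 5316 CPM in Susd2-/-, against 5986 and 5976 CPM in WT). These counts stand beside 11.5% of all genes called higher and 12.1% called lower. No marker of these lists was at 0 in all day 0 libraries, and their part in the class I values was not tested.

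Ratios between the genes also differed between groups. H2-Q6 made up 47.7% and 49.6% of the summed H2-Q6 and H2-Q7 counts in Susd2-/- day 3, against 53.5% and 51.6% in WT day 3, and 30.9% and 31.6% in Susd2-/- day 0, against 37.9% and 38.8% in WT day 0. Susd2-/- libraries were below WT libraries on each day. The means differed by -3.90 percentage points at day 3 and -7.10 percentage points at day 0, Susd2-/- minus WT. The H2-Q6 counts in this share helped choose the genes, so its genotype difference is a description and was not tested. Both genotypes had the higher share at day 3. Single sequencing lanes ranged from 45.4% to 51.1% in Susd2-/- day 3, 51.6% to 55.8% in WT day 3, 30.5% to 32.2% in Susd2-/- day 0 and 37.6% to 39.0% in WT day 0. The ratio of H2-K1 to H2-D1 counts was 1.04 and 0.990 in Susd2-/- day 3, against 1.03 and 1.00 in WT day 3, and 1.42 and 1.42 in Susd2-/- day 0, against 1.57 and 1.55 in WT day 0. That ratio overlapped between genotypes at day 3 and was lower in both Susd2-/- libraries at day 0.

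**Figure D3:**
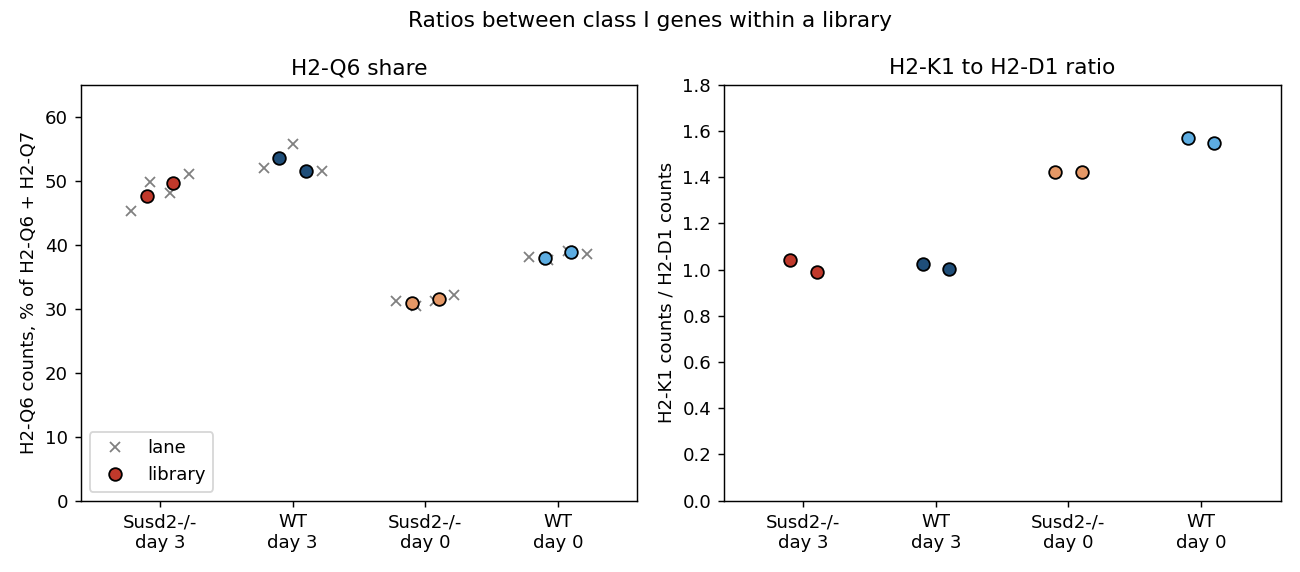
Left, H2-Q6 counts as a percentage of the H2-Q6 and H2-Q7 counts, with coloured circles for libraries and crosses for single lanes; right, the ratio of H2-K1 to H2-D1 counts per library. The H2-Q6 share is 47.7% to 53.5% in day 3 libraries and 30.9% to 38.8% in day 0 libraries, and the H2-K1 to H2-D1 ratio is 0.990 to 1.04 at day 3 and 1.42 to 1.57 at day 0.

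Whether the day difference itself differed between genotypes was tested for 9 genes, H2-Q6 being left out. Tap1 rose more in Susd2-/- cells than in WT cells, with an interaction of 0.38 ± 0.0902 on the log2 scale (edgeR adjusted p = 0.00946), and B2m fell less in Susd2-/- cells, with 0.32 ± 0.0955 (edgeR adjusted p = 0.0315). These 2 of 9 compare with 13.5% of all genes. Before adjustment 4 of 9 were under 0.05, against 26.8% of all genes: Nlrc5 (0.28) and H2-Q7 (-0.76) were so before adjustment only, with edgeR adjusted p = 0.0866 for Nlrc5 and 0.130 for H2-Q7. When the day 0 libraries of a group were counted as 1, neither Tap1 (edgeR adjusted p = 0.197) nor B2m (edgeR adjusted p = 0.306) passed. B2m also missed the threshold without Susd2-/- day 0 library 4 (edgeR adjusted p = 0.135), WT day 0 library 3 (0.0833) or library 4 (0.115), Susd2-/- day 3 library 2 (0.0670) or WT day 3 library 1 (0.0673). H2-Q7 passed with DESeq2 (adjusted p = 0.0337), with limma voom (adjusted p = 0.00715), with no filter on low counts (edgeR adjusted p = 5.81e-08), without WT day 3 library 1 (edgeR adjusted p = 2.94e-11) and without WT day 3 library 2 (edgeR adjusted p = 0.00424). Nlrc5 passed with no filter (edgeR adjusted p = 0.0269), without Susd2-/- day 3 library 2 (edgeR adjusted p = 0.0168) and without WT day 3 library 2 (edgeR adjusted p = 0.00449). Without WT day 3 library 2, H2-T23 (0.35, edgeR adjusted p = 0.0195) and Tapbp (0.35, edgeR adjusted p = 0.0248) also passed, and H2-D1 (-0.30, edgeR adjusted p = 0.0463) passed without WT day 3 library 1.

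Set per kilobase of annotated exon, B2m had the highest level of the 10 genes in every group, at 924 ± 12.0 CPM per kb in Susd2-/- day 3, 1008 ± 108 in WT day 3, 1560 ± 67.9 in Susd2-/- day 0 and 2126 ± 10.8 in WT day 0 (SD, n = 2 each). H2-K1 and H2-D1 followed. H2-D1 was at 440 ± 39.3 CPM per kb in Susd2-/- day 3, where H2-K1 was at 393 ± 48.8 and their libraries overlapped. At day 0 H2-K1 was above H2-D1, at 980 ± 44.8 against 785 ± 36.3 CPM per kb in Susd2-/- and 1142 ± 18.1 against 835 ± 22.1 in WT. In WT day 0 the order of the others was H2-Q6 (220 ± 2.50 CPM per kb), H2-Q7 (173 ± 2.77), H2-Q4 (163 ± 1.76), H2-T23 (142 ± 1.83), Tap1 (61.4 ± 0.0719), Tapbp (58.8 ± 0.626) and Nlrc5 (40.5 ± 0.270), each above the next in both libraries. In Susd2-/- day 0 it was H2-Q4 (147 ± 4.64 CPM per kb), H2-Q7 (127 ± 5.23), H2-Q6 (118 ± 2.34) and H2-T23 (110 ± 9.93), with the libraries of the last pair overlapping. At day 3 H2-T23 was above the Q genes, at 115 ± 7.59 CPM per kb in Susd2-/- and 139 ± 28.7 in WT. Exon length is the union over annotated transcripts, so a gene with long unused exons is set too low.

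Other genes of the pathway were read from lists. Of 19 other class I and class I-like genes, 13 fell and 0 rose from day 0 to day 3 in Susd2-/- cells, and 12 fell and 0 rose in WT cells, against 39.7% and 39% of all genes falling in Susd2-/- and in WT cells. Their median log2 fold change was -1.54 in Susd2-/- cells and -1.69 in WT cells, also with genes at 0 in 1 group set to their bound. Cd1d1, which presents lipids, was at 1.11 and 1.38 CPM in Susd2-/- day 3, against 34.6 and 39.7 CPM in Susd2-/- day 0, and fell by 4.86 ± 0.160 on the log2 scale (edgeR adjusted p = 1.21e-15). H2-M3, which presents formylated peptides, fell by 0.86 ± 0.0880 in Susd2-/- cells (edgeR adjusted p = 3.92e-08) and by 1.28 ± 0.0884 in WT cells (edgeR adjusted p = 1.06e-10). H2-T22, a ligand of some gamma-delta T cell receptors, fell by 0.73 ± 0.0708 in Susd2-/- cells (edgeR adjusted p = 1.67e-08) and by 0.81 ± 0.0708 in WT cells (edgeR adjusted p = 3.79e-09).

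In the same 19 genes, 0 were called between genotypes at day 3 by edgeR, with 3 at an unadjusted p under 0.05 (7.89% of all genes), 1 called lower by DESeq2 and 1 by limma voom. The count was 6 without WT day 3 library 1, and 1 without WT day 3 library 2, Susd2-/- day 3 library 1 or WT day 0 library 3. At day 3 H2-Q5, annotated as a polymorphic pseudogene of the Q region, had 9.60 and 7.58 CPM in Susd2-/-, against 16.5 and 25.8 CPM in WT, a log2 fold change of -1.32 ± 0.214 (edgeR adjusted p = 0.146). At day 0, 5 of the 19 were lower in Susd2-/- cells and 0 higher, against 12.1% of all genes lower, with a median of -0.38. H2-M3 fell to 46.0 and 45.2 CPM in Susd2-/- day 0, against 64.7 and 64.9 CPM in WT day 0 (log2 fold change -0.51 ± 0.0856, edgeR adjusted p = 0.000284). H2-T22 had 183 and 175 CPM in Susd2-/- day 0, against 225 and 235 CPM in WT day 0 (log2 fold change -0.36 ± 0.0701, edgeR adjusted p = 0.000915). The 5 became 3 when any of the 4 day 0 libraries was left out and 0 when the day 0 libraries of a group were counted as 1.

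Of 18 other peptide loading and trimming genes, 16 rose and 1 fell in Susd2-/- cells, and 15 rose and 1 fell in WT cells, against 36.7% of all genes rising in Susd2-/- cells and 36.2% in WT cells. Their median log2 fold change was 0.99 in Susd2-/- cells and 0.79 in WT cells. Thop1, a cytosolic peptidase, had 156 and 152 CPM in Susd2-/- day 3, against 11.6 and 11.4 CPM in Susd2-/- day 0, and 172 and 155 CPM in WT day 3, against 12.1 and 11.7 CPM in WT day 0. Its log2 fold change was 3.74 ± 0.0828 in Susd2-/- cells (edgeR adjusted p = 4.67e-18) and 3.78 ± 0.0828 in WT cells (edgeR adjusted p = 4.10e-18). The chaperone gene Canx rose by 1.55 ± 0.0590 in Susd2-/- cells (edgeR adjusted p = 1.10e-14) and by 1.67 ± 0.0593 in WT cells (edgeR adjusted p = 4.03e-15). Tap2, the partner of Tap1, was named after its values were seen and had log2 fold changes of 0.06 ± 0.0859 in Susd2-/- cells (edgeR adjusted p = 0.530) and 0.05 ± 0.0858 in WT cells (edgeR adjusted p = 0.634). Between genotypes 0 of the 18 were called at day 3 by edgeR, DESeq2 or limma voom, and 1 was under 0.05 before adjustment; 1 was called lower without Susd2-/- day 3 library 1 or without WT day 3 library 1. At day 0, 4 were higher and 3 lower in Susd2-/- cells, against 11.5% of all genes higher and 12.1% lower, among them the chaperones Hspa5 (0.44 ± 0.0586, edgeR adjusted p = 2.43e-05) and Calr (0.34 ± 0.0688, edgeR adjusted p = 0.00136), and, lower, the peptide editor Tapbpl (-0.37 ± 0.0647, edgeR adjusted p = 0.000388) and the trimming peptidase Erap1 (-0.36 ± 0.0666, edgeR adjusted p = 0.000723). The 4 became 1 without Susd2-/- day 0 library 3 or WT day 0 library 3. With the day 0 libraries of a group counted as 1, 1 was higher and 0 lower, and Tapbpl (edgeR adjusted p = 0.0716), Erap1 (0.0941) and Calr (0.140) missed the threshold.

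All 6 immunoproteasome genes were lower in Susd2-/- day 0 than in WT day 0, against 12.1% of all genes. Psmb9 had 78.7 and 73.2 CPM in Susd2-/- day 0, against 128 and 125 CPM in WT day 0 (log2 fold change -0.74 ± 0.0710, edgeR adjusted p = 6.93e-07), and Psmb8 had 173 and 162 CPM in Susd2-/- day 0, against 248 and 237 CPM in WT day 0 (log2 fold change -0.53 ± 0.0636, edgeR adjusted p = 7.54e-06). Both encode catalytic subunits that trim peptides for class I. At day 3, 0 of the 6 were called by edgeR, DESeq2 or limma voom, and 0 were under 0.05 before adjustment. Psmb8 then had 389 and 400 CPM in Susd2-/-, against 387 and 418 CPM in WT. From day 0 to day 3, 5 of the 6 rose in Susd2-/- cells, and 5 rose and 1 (Psmb10) fell in WT cells, beside 36.7% of all genes rising in Susd2-/- cells and 36.2% in WT cells, in the direction of Tap1 and opposite to 5 of the 6 heavy chains. Psmb8 rose by 1.24 ± 0.0640 on the log2 scale in Susd2-/- cells (edgeR adjusted p = 1.19e-12) and by 0.73 ± 0.0632 in WT cells (edgeR adjusted p = 3.29e-09). Counting the day 0 libraries of a group as 1 left 3 of the 6 genotype calls.

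Among 27 transcriptional regulators of class I and interferon signalling genes, 6 rose and 16 fell from day 0 to day 3 in each genotype, beside 36.7% of all genes rising and 39.7% falling in Susd2-/- cells, and 36.2% rising and 39% falling in WT cells. Irf8 rose by 5.51 ± 0.101 on the log2 scale in Susd2-/- cells (edgeR adjusted p = 2.61e-18) and by 5.18 ± 0.0973 in WT cells (edgeR adjusted p = 3.70e-18). The polycomb methyltransferase gene Ezh2 rose by 2.94 ± 0.0660 in Susd2-/- cells (edgeR adjusted p = 5.71e-18) and by 3.34 ± 0.0676 in WT cells (edgeR adjusted p = 1.44e-18), while the kinase gene Jak1 fell by 2.22 ± 0.0578 in Susd2-/- cells (edgeR adjusted p = 4.53e-17) and by 2.06 ± 0.0576 in WT cells (edgeR adjusted p = 1.15e-16). Between genotypes at day 0, 7 were higher and 4 lower in Susd2-/- cells, beside 11.5% of all genes higher and 12.1% lower. Irf1, an activator of class I genes, had 213 and 199 CPM in Susd2-/- day 0, against 314 and 304 CPM in WT day 0 (log2 fold change -0.59 ± 0.0635, edgeR adjusted p = 2.79e-06). The interferon gamma receptor genes went the other way, with Ifngr1 at 345 and 350 CPM in Susd2-/- day 0, against 219 and 225 CPM in WT day 0 (log2 fold change 0.65 ± 0.0591, edgeR adjusted p = 4.28e-07), and Ifngr2 at 0.73 ± 0.101 (edgeR adjusted p = 3.45e-05). At day 3, 0 of the 27 were called by edgeR or limma voom and 1 by DESeq2, with 3 under 0.05 before adjustment; 2 were called lower without Susd2-/- day 3 library 1 and 1 without WT day 3 library 1. The day 0 count of 7 was 4 without Susd2-/- library 3, WT library 3 or WT library 4, and the count of 4 was 2 without Susd2-/- library 4. With the day 0 libraries of a group counted as 1, 3 were higher and 3 lower.

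**Figure D4:**
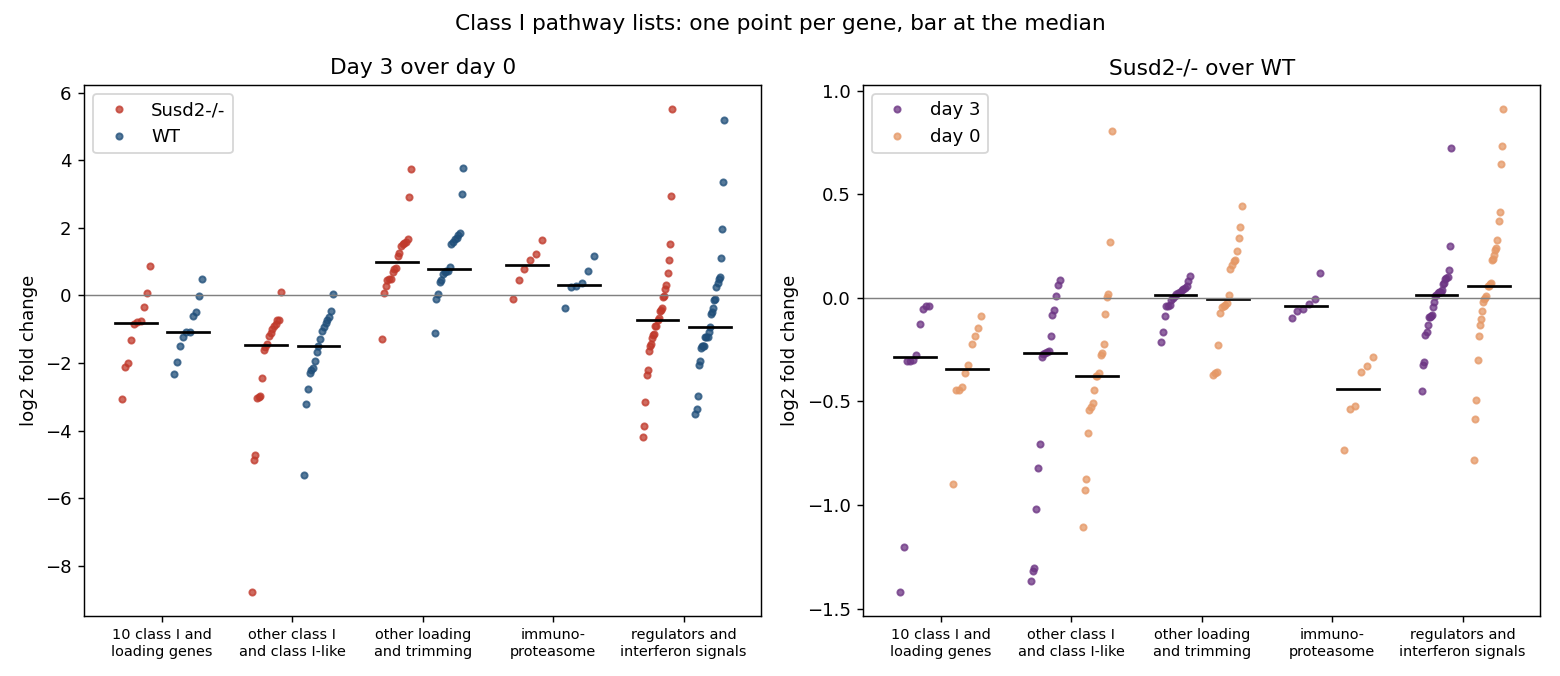
Log2 fold changes (vertical axes) of the 10 genes and of 4 lists of pathway genes, day 3 over day 0 on the left and Susd2-/- over WT on the right, with 1 point per gene and a bar at the median of the points shown. Genes with 3 or fewer counts in a compared group are not drawn (at most 2 of 19 other class I genes, none in the other lists); loading and trimming genes lie mostly above 0 on the left while other class I genes lie below, and on the right the immunoproteasome medians are -0.44 at day 0 and -0.04 at day 3.

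The coreceptor genes that bind class I fell with it: Cd8b1 had 251 and 277 CPM in Susd2-/- day 3, against 846 and 769 CPM in Susd2-/- day 0, and 296 and 313 CPM in WT day 3, against 978 and 971 CPM in WT day 0. Its log2 fold change was -1.61 ± 0.0675 in Susd2-/- cells (edgeR adjusted p = 4.55e-14) and -1.68 ± 0.0676 in WT cells (edgeR adjusted p = 2.62e-14), and Cd8a had -0.74 ± 0.0561 in Susd2-/- cells (edgeR adjusted p = 4.09e-10) and -0.70 ± 0.0561 in WT cells (edgeR adjusted p = 9.81e-10). Over all genes, 36.7% rose and 39.7% fell in Susd2-/- cells, and 36.2% rose and 39% fell in WT cells. Of 17 genes for receptors of class I or related receptors, 15 fell and 1 rose in Susd2-/- cells, and 14 fell and 1 rose in WT cells. The 1 rise in WT cells was not called by DESeq2, by limma voom or in some fits with 1 library left out. Of 10 MHC class II genes, 8 fell in each genotype, and at day 0, 2 (H2-DMa and H2-Oa) were lower in Susd2-/- cells, beside 12.1% of all genes; this count was 1 without Susd2-/- day 0 library 4, WT day 0 library 3 or WT day 0 library 4 and 3 without either WT day 3 library. Summed class II was 28.0 and 26.6 CPM in Susd2-/- day 3, against 126 and 125 CPM in Susd2-/- day 0, and 26.5 and 34.1 CPM in WT day 3, against 156 and 156 CPM in WT day 0. Class II genes also mark B cells and other antigen presenting cells, whose part in these values was not tested. Of the 76 tested genes beside these loci on chromosome 17, 29 rose and 28 fell in Susd2-/- cells, and 34 rose and 22 fell in WT cells, beside the shares of all genes just given.

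Across the 8 libraries, which share 2 days, the genes with the pattern most like H2-Q6 were Dock5 (Pearson r of log2 CPM 0.971), Plscr3 (0.970), Rsu1 (0.970), H2-Q5 (0.969) and H2-T22 (0.968), among 11148 genes. For Nlrc5 they were I730030J21Rik (0.997), Phkb (0.997), Ikbkg (0.996), Gm18588 (0.996) and Dennd4c (0.995). Among the 10 genes, H2-K1 and H2-Q4 were at r = 0.994 and H2-Q6 and H2-Q7 at r = 0.960, while H2-K1 and Tap1 were at r = -0.80 and H2-K1 and H2-T23 at r = 0.211. Much of each value comes from the difference between days.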

How the data were processed

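The deposited table held the authors' raw counts per gene, whole numbers with no normalization, in 15 columns of single lanes for 27019 genes; no column was left unused. Per the submitters' processing notes, the tools included Subread 2.0.1, SAMtools 1.10, HISAT2 2.1.0 and fastp 0.23.2, and the build was GRCm38, with no roles stated. Which annotation release was used, whether counting used strand, and how multiply aligned reads were treated is not given in the sources used here. Lanes were summed into 8 libraries by the library names in the labels. Chi-square per degree of freedom was 3.01 to 3.17 between lanes of a library. Between the 2 libraries of a group it was 16.0 in Susd2-/- day 3 and 12.5 in WT day 3. At day 0 it was 6.30 in Susd2-/- and 3.37 in WT, where lanes of a library had 3.05 and 3.11. WT day 3 library 2 has 1 lane. Genes were kept by filterByExpr (16057), and 1 model over all 4 groups used edgeR 4.0.16 under R 4.3.3, with TMM scaling, the robust quasi-likelihood F test, 4 residual degrees of freedom and Benjamini-Hochberg adjustment over 16057 genes. The code was tested on simulated data. SE is the log2 fold change over the square root of F. Alternatives were DESeq2 1.42.0, limma 3.58.1 (voom), other scaling, no filter, fewer libraries and a block. Named genes were the 10, Susd2, and in each list up to 4 genes of smallest adjusted p in a comparison with a call, or up to 2 of highest level with none. Exon lengths, coding sequences and shared 150-base windows come from GENCODE M21 on GRCm38, and promoters from RefSeq on GRCm38.p6. One gene of the lists is not reported here by name. The members and lists were chosen with earlier results of these data known.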

Additional observations from a re-analysis of the deposited data

Results flagged for a closer look

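In the genes named here, the day 3 to day 0 difference differed between Susd2-/- and WT cells by a test of the interaction itself (edgeR, adjusted over all genes). The values are Susd2-/- minus WT on the log2 scale. At most 4 genes of a list are named, by smallest adjusted p. In the whole lists, 2 of 27 regulators and interferon signalling genes were called above 0 and 6 below. Of 18 loading and trimming genes 3 were above and 2 below, of 6 immunoproteasome genes 4 and 0, and of 19 other class I genes 1 and 0. Over all genes 13.5% were called in either direction. Among the genes named, those above 0 were Psmb9 at 0.68 (adjusted p = 0.000168), Irf1 at 0.65 (adjusted p = 0.000112), Psme2 at 0.52 (adjusted p = 0.00207), Psmb8 at 0.51 (adjusted p = 0.000953) and Pomp at 0.48 (adjusted p = 0.00307). Psmb9 had 161 and 155 CPM in Susd2-/- day 3, against 154 and 174 CPM in WT day 3, and 78.7 and 73.2 CPM in Susd2-/- day 0, against 128 and 125 CPM in WT day 0, so its genotypes overlapped at day 3 and were apart at day 0.

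Also above 0, H2-M3 was at 0.42 (adjusted p = 0.0291), Sec61b at 0.42 (adjusted p = 0.0178), Erap1 at 0.38 (adjusted p = 0.0117), Tap1 at 0.38 (adjusted p = 0.00946), Tapbpl at 0.33 (adjusted p = 0.0208) and B2m at 0.32 (adjusted p = 0.0315). Below 0 were Nfkb1 at -0.46 (adjusted p = 0.00105), Hspa5 at -0.45 (adjusted p = 0.00125) and Ifngr1 at -0.40 (adjusted p = 0.00457). With the day 0 libraries of a group counted as 1, 12 of these 14 genes missed the threshold, all but Irf1 and Psmb9. The edgeR adjusted p was then 0.0573 for Psme2, 0.0644 for Psmb8, 0.0822 for Nfkb1, 0.0950 for Hspa5, 0.107 for Pomp, 0.129 for Ifngr1, 0.190 for Erap1, 0.190 for Sec61b, 0.197 for Tap1, 0.232 for Tapbpl, 0.258 for H2-M3 and 0.306 for B2m. H2-M3 also missed it with DESeq2 (adjusted p = 0.0518) and in 6 of 8 fits without 1 library, B2m in 5, Sec61b and Tapbpl in 3 each, and Erap1 and Ifngr1 in 2 each.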

How the results depend on the processing

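The day comparisons were the most stable: 9 genes changed in each genotype, 8 to 9 in Susd2-/- cells and 9 to 10 in WT cells when 1 library was left out, and no other setting moved either count by over 1.5 times. Of the 10 genes called between genotypes at day 0 (4), 7 were called with no filter, 7 with limma voom, 9 with the 4 libraries of the comparison only and 0 with the day 0 libraries of a group counted as 1; leaving out 1 library gave 4 to 8. At day 3 (1), the counts were 2 with no filter, 2 with DESeq2, 2 with limma voom, 0 with 4 libraries only and 0 with day 0 libraries counted as 1, and 0 to 6 when 1 library was left out. For the interaction (2), the counts were 4 with no filter and 0 with day 0 libraries counted as 1, and 1 to 6 when 1 library was left out. The H2-Q6 share, Susd2-/- minus WT, ranged from -7.56 to -6.64 percentage points at day 0 and from -4.88 to -2.92 at day 3 when 1 library was left out. It was -10.2 at day 3 with H2-Q4 added to the denominator. This share is a description, as the H2-Q6 counts helped choose the genes.

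The values whose sign turned belonged to genes and comparisons not called in the main fit. Susd2-/- over WT at day 3 was above 0 in 1 of 15 settings for B2m (up to 0.0147), 2 for Tap1 (up to 0.0315), 3 for Tapbp (up to 0.150) and 3 for Nlrc5 (up to 0.0802). H2-T23, day 3 over day 0, was -0.0487 in Susd2-/- cells with the replicate block, and when 1 library was left out it ranged from -0.0340 to 0.210 in Susd2-/- cells and from -0.228 to 0.172 in WT cells. When 1 library was left out, the interaction ranged from -0.210 to 0.0992 for H2-K1 and from -0.0507 to 0.354 for H2-T23. The H2-T23 values of -0.228 and 0.354 kept the sign of the main fit and came without WT day 3 library 2, as given above. The causes were not tested.

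Over all genes, the calls between genotypes at day 3 were 22, against 138 with no filter, 57 with DESeq2, 3 with 4 libraries only, 1 with day 0 libraries counted as 1, 6 without Susd2-/- day 0 library 4 and 309 without WT day 3 library 1; leaving out Susd2-/- day 3 library 1 also raised the count. At day 0 they were 3792, against 725 with day 0 libraries counted as 1 and 2044 to 4410 when 1 library was left out.

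Over 5920 genes, the deviations from group means of same-numbered libraries correlated at -0.0368 at day 0 and -0.0850 at day 3. With 2 libraries in a group this is 1 value per day, so it cannot decide whether same-numbered libraries were paired. With the library number as a block, 4 of the 10 genes were called at day 0 and 1 at day 3. DESeq2 size factors moved the median of all genes by under 0.1 on the log2 scale in each comparison.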
